A study of Mus musculus with 17 samples.

Results

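The unfolded protein response and its ATF4 branch were compared between the colons of 9 control and 8 GWI mice through 33 genes, which were chosen by name. All 33 symbols were found among the 23719 entries of the deposited count table, and 32 of them were among the 14146 genes that passed a filter on low counts and were tested. By role, 5 encode the stress sensors and their transcription factors, 14 encode chaperones and folding enzymes of the endoplasmic reticulum (ER), 7 act in ER-associated degradation and 7 belong to the ATF4 arm. GWI stands for the Gulf War illness model. Every animal was a C57BL/6 male of 32 to 34 weeks. The GWI animals drank water with 2 mg/kg of pyridostigmine bromide (PB), which reversibly inhibits acetylcholinesterase, during 7 days and then recovered for 21 days, whereas the controls drank water, and tissue was collected at day 30. The tissue was colon explant, and the sources used here do not say which layers of the wall it held. Poly(A) RNA was sequenced, and libraries held 16744096 to 20741212 counts in control colons and 16293537 to 18389686 in GWI colons. The libraries were not alike in composition. The 10 most abundant genes took 23.1% of the counts of Control replicate 9, which also had the lowest TMM scaling factor, 0.799, and between 9.72% and 17.3% of the counts of each other mouse. In whole tissue, fewer cells of a type and less RNA per cell cannot be told apart, and this holds for every difference given here.

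When unfolded proteins build up in the ER lumen, the chaperone BiP leaves the membrane sensors IRE1, PERK and ATF6. IRE1 splices the mRNA of the transcription factor XBP1, ATF6 is cut to release a transcription factor of its own, and both raise the genes of ER chaperones and of the machinery that returns misfolded proteins to the cytosol for degradation. PERK phosphorylates the initiation factor eIF2α, which slows translation but favours that of ATF4, and ATF4 in turn raises genes of amino acid supply, redox balance and, through CHOP, cell death. In the colon the response is best known from secretory cells, above all the goblet cells that make mucin and the plasma cells that make immunoglobulin. ATF4 is set largely at translation and XBP1 at splicing, so gene counts read neither directly.

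Levels are given as CPM, counts scaled to a common library size after TMM normalization. GWI colons were set against control colons with the quasi-likelihood test of edgeR, and Benjamini-Hochberg adjustment ran over the 14146 tested genes. A gene was called at an adjusted p under 0.05, and a positive log2 fold change is higher in GWI colons. Of the 32 tested genes of the response, 13 were called higher and 1 lower in GWI colons, beside 13.4% of all tested genes called higher and 13.5% called lower. Their log2 fold changes ran from -1.37 for Trib3 to 0.97 for Sesn2, with 23 positive and 9 negative and a median of 0.24, beside a median of -0.06 over all tested genes. The calls took 3 of 5 sensor genes, 6 of 14 chaperone genes and 3 of 6 tested degradation genes, all higher, and in the ATF4 arm 1 gene higher and 1 lower of 7. The 3 genes with the smallest adjusted p, Sesn2, Ern1 and Eif2ak3, were also the ones called in each of 12 other fits and in each of 17 fits that left out 1 mouse. Control replicates 3, 4 and 5 share a first part of the sample name, and Control replicates 7 and 8 share another. Parts are also shared by GWI replicates 1 and 2, by GWI replicates 3, 4 and 5 and by GWI replicates 7 and 8. The sources used here do not give the meaning of this first part, and each such part occurs in 1 group only. With that part as a random block, whose estimated correlation was 0.621, these 3 genes were the only ones called, none was called lower, and the genes called over the whole table numbered 376 higher and 94 lower in place of 1889 and 1903. That fit was made with limma-voom in place of edgeR, so the part of the block and that of the tool cannot be told apart. Upper-quartile scaling, which moved the median of all tested genes to -0.15, gave 6 higher and 3 lower of the 32, and 1214 higher and 2992 lower over the whole table. The limma-voom fit with sample quality weights called more genes, 3911 higher and 4180 lower over the whole table, and added Hspa5, Dnajc3, Ern2 and Xbp1 to the members called higher and Dnajb9, Herpud1, Atf4, Ddit3 and Chac1 to those called lower.

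**Figure D1:**
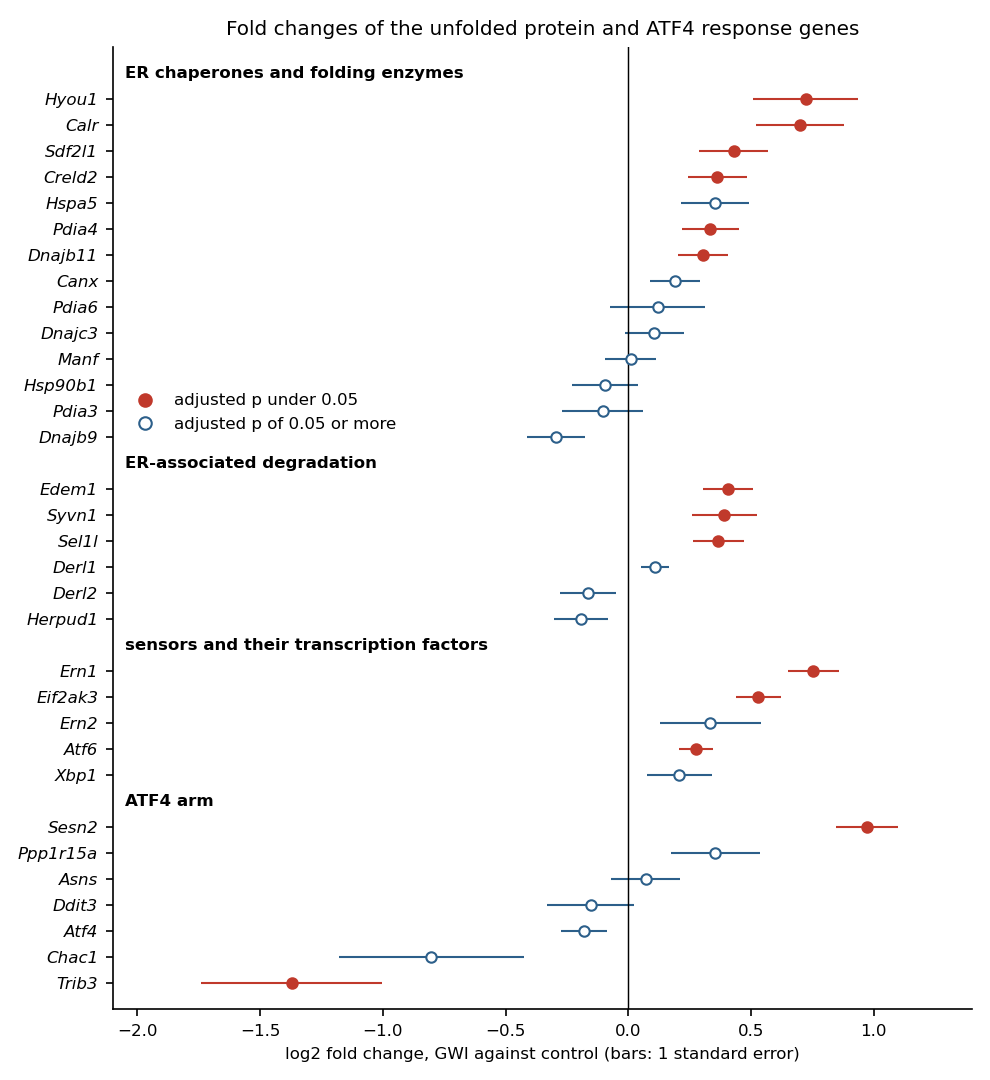
The log2 fold change of each of the 32 tested genes (x axis, GWI against control, bars of 1 standard error) is drawn by role (y axis), with filled points for an adjusted p under 0.05. Filled points lie right of 0 for 13 genes, among them Ern1 at 0.75 and Sesn2 at 0.97, and left of 0 for Trib3 at -1.37.

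The sensor genes held the clearest separation of the groups. Ern1, which encodes the ubiquitous IRE1 kinase and nuclease, had a lowest, median and highest level of 18.5, 26.4 and 35.0 CPM in control colons and of 35.3, 46.7 and 50.1 CPM in GWI colons. The groups did not overlap, although the top control (replicate 1) and the bottom GWI mouse (replicate 8) nearly met. For this gene the log2 fold change was 0.75 (adjusted p = 0.000379, standard error 0.11, 8 of 8 GWI mice above every control). Eif2ak3, the gene of PERK, ranged from 22.4 through a median of 27.3 to 32.2 CPM in control colons and from 33.4 through 40.1 to 48.3 CPM in GWI colons. Here too all 8 GWI mice lay above every control, with a log2 fold change of 0.53 (adjusted p = 0.00117, standard error 0.09). Of all tested genes, 1.83% had every GWI mouse above every control, and Ern1 and Eif2ak3 were the only members among them. Exons of Eif2ak3 overlap those of Gm43292 on the opposite strand over 485 bp, 8.05% of its exonic length, so its count is uncertain if the counting did not use strand, which the sources used here do not say.

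Atf6, the gene of the cleaved sensor, rose less. Its lowest, median and highest levels were 51.8, 58.9 and 65.3 CPM in control colons and 61.9, 70.9 and 76.4 CPM in GWI colons. The ranges overlapped narrowly, since GWI replicates 5 and 8 lay within the control range and the other 6 above it. This gave a log2 fold change of 0.28 (adjusted p = 0.00921, standard error 0.07). Over the 12 other fits the adjusted p of Atf6 ran from 0.0000980 to 0.328. It was not called with upper-quartile factors (adjusted p = 0.0588, log2 fold change 0.18), with a score of muscle against epithelium markers as a covariate (0.328, log2 fold change 0.15) or with the name part as a random block (0.108, log2 fold change 0.29). Xbp1, whose mRNA IRE1 splices, spanned 131 to 253 CPM around a median of 166 CPM in control colons and 157 to 246 CPM around a median of 197 CPM in GWI colons. The GWI range lay wholly inside the control range, where replicates 7 and 8 were high, and the log2 fold change of 0.21 (standard error 0.13) did not pass the test (adjusted p = 0.244). The counts do not separate spliced from unspliced Xbp1 mRNA. Ern2, the IRE1 form of mucus-secreting epithelium, had a log2 fold change of 0.33 (adjusted p = 0.230), with 31.7 to 82.8 CPM in control and 48.6 to 105.6 CPM in GWI colons. That log2 fold change of Ern2 was 0.19 without GWI replicate 1, its highest mouse, 0.02 with the muscle covariate and 0.62 with limma-voom and quality weights, where it was called. All 5 sensor genes thus had positive fold changes, with a median of 0.33, which is the value of Ern2.

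**Figure D2:**
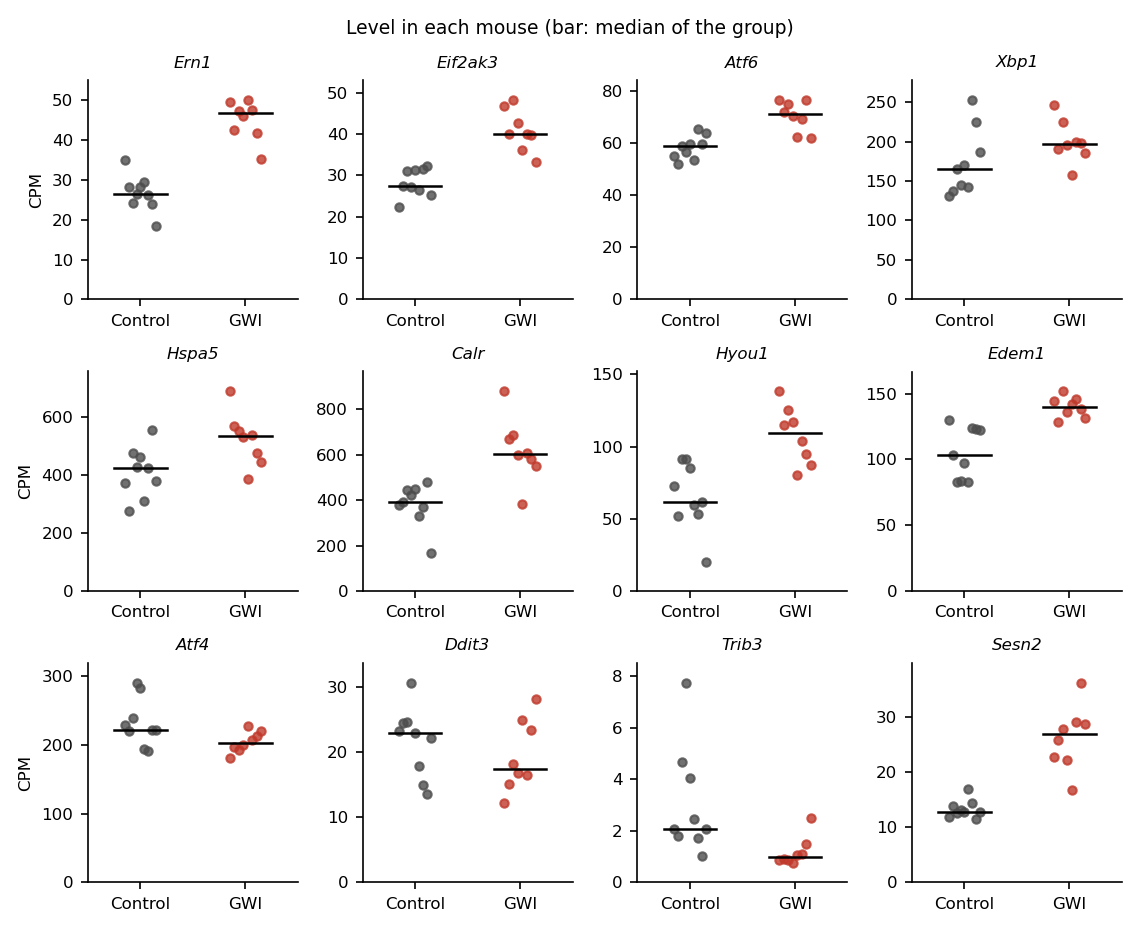
Each point is the level of 1 mouse in CPM (y axes from 0) for 12 genes, with 9 control and 8 GWI mice per panel and a bar at the group median. The groups are apart for Ern1 and Eif2ak3, nearly apart for Sesn2, where GWI replicate 5 lies at 16.7 CPM and Control replicate 6 at 17.01 CPM, and overlapping for Hspa5, Xbp1, Atf4 and Ddit3.

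Among the ER chaperones, the lectin chaperone calreticulin and the exchange factor of BiP moved most. Calr, which encodes calreticulin, had a lowest, median and highest level of 166, 390.0 and 481 CPM in control colons and of 382, 602 and 879 CPM in GWI colons. In 7 of 8 GWI mice the level was above every control, GWI replicate 5 lay inside the control range, and Control replicate 9 stood far below its group. The log2 fold change was 0.70 (adjusted p = 0.00995, standard error 0.18) and stayed between 0.61 and 0.78 when any 1 mouse was left out. Hyou1, which encodes the large Hsp70-like partner of BiP, spanned 19.9 to 91.3 CPM around a median of 61.8 CPM in control colons and 80.3 to 138 CPM around a median of 109 CPM in GWI colons. The level was above every control in 6 of 8 GWI mice, and Control replicate 9 again had the lowest value. Its log2 fold change was 0.72 (adjusted p = 0.0202, standard error 0.21). With the name part as a random block neither gene was called (adjusted p = 0.0733 for Calr and 0.0653 for Hyou1), although their log2 fold changes there were larger, 0.83 and 0.94. Calr also missed the threshold with the muscle covariate (adjusted p = 0.0567, log2 fold change 0.87).

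The other 4 chaperone genes called higher changed by smaller amounts. Sdf2l1, a partner of ER J-domain proteins, ranged from 17.1 to 38.5 CPM (median 23.6) in control colons and from 26.4 to 43.8 CPM (median 34.1) in GWI colons, and its groups overlapped only through Control replicates 7 and 8. Its log2 fold change was 0.43 (adjusted p = 0.0332). Creld2, which encodes a stress-induced ER protein, had 19.2 to 37.2 CPM (median 30.7) against 30.9 to 43.0 CPM (median 39.7), with 6 of 8 GWI mice above every control and a log2 fold change of 0.36 (adjusted p = 0.0340). The J-domain cochaperone Dnajb11 had a narrow GWI range, 159 to 183 CPM (median 169) against 95.3 to 171 CPM (median 142) in control colons. In this gene 7 of 9 controls lay below every GWI mouse, and the log2 fold change was 0.30 (adjusted p = 0.0341). Pdia4, a protein disulfide isomerase, had 75.6 to 129 CPM (median 102) in control and 100.2 to 167 CPM (median 126) in GWI colons, with 3 of 8 GWI mice above every control and a log2 fold change of 0.33 (adjusted p = 0.0415). These 4 calls were close to the threshold. All 4 were lost with upper-quartile factors, with the muscle covariate and with the name part as a random block. With the muscle covariate the log2 fold change of Sdf2l1 was 0.10 (adjusted p = 0.752). Those of Creld2, Dnajb11 and Pdia4 were 0.49, 0.27 and 0.41 there. For the 4 genes the upper-quartile values were 0.21 to 0.34 and the name-block values 0.37 to 0.48. When single mice were left out, 7 of 17 fits kept the call of Sdf2l1, 9 that of Creld2, 8 that of Dnajb11 and 6 that of Pdia4, and leaving out any of GWI replicates 1, 2, 3 and 4 or Control replicate 6 ended all 4.

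Hspa5, the gene of BiP and the usual readout of ER stress, had a lowest, median and highest level of 276, 424 and 555 CPM in control colons and of 384, 534 and 688 CPM in GWI colons. The groups overlapped broadly, with GWI replicates 1 and 2 above every control and Control replicates 2 and 6 lowest. Its log2 fold change of 0.35 (standard error 0.14) missed the threshold (adjusted p = 0.0637). It was called by DESeq2's Wald test, by limma-voom with sample quality weights and with the GC and length trend removed, and its adjusted p ranged from 0.0135 to 0.501 over the 12 other fits. The remaining 7 chaperone genes were not called either. Canx (calnexin) had a log2 fold change of 0.19, Pdia6 of 0.12, Dnajc3 of 0.11 and Manf, a secreted ER protein, of 0.01, while the values of Hsp90b1, the ER form of Hsp90, Pdia3, the isomerase that works with calreticulin, and Dnajb9, a J-domain cochaperone known as a target of XBP1, were -0.10, -0.11 and -0.29. Without Control replicate 9 the values of Hsp90b1 and Pdia3 were 0.00 and -0.01, and that of Dnajb9 lay between -0.33 and -0.20 whichever mouse was left out. Dnajb9 was called lower in 4 of the 12 other fits (upper-quartile factors, library size alone, limma-voom with quality weights and the muscle covariate). Over all 12 its adjusted p lay between 0.00588 and 0.945 and its log2 fold change between -0.52 and -0.01. With the GC and length trend removed, which called 16 members higher and 1 lower, Canx (log2 fold change 0.35) and Dnajc3 (0.25) were called higher, and Dnajc3 was also called with limma-voom and quality weights. Exons of Hsp90b1 overlap those of 1810014B01Rik on the opposite strand over 415 bp. Over all 14 chaperone genes the median log2 fold change was 0.25, with 11 positive and 3 negative. Among the genes not called, the direction of Hsp90b1, Pdia3, Pdia6, Dnajc3 and Manf was not fixed, since each turned sign in at least 1 other fit.

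Per kilobase of exon and by the mean over all mice, chaperone genes held ranks 1 to 5 among the members. Atf4 ranked 6, Xbp1 8 and the chaperone gene Hyou1 23. Pdia3 led in control colons with 216 CPM per kilobase, ahead of Hsp90b1 with 155 and Calr with 132. In GWI colons Calr, at 215 CPM per kilobase, stood above Pdia3 at 201. The sensor genes Ern1 and Eif2ak3 lay far lower, at 3.26 and 4.70 CPM per kilobase in control colons. Trib3 and Chac1 were lowest among the tested genes, at 1.45 and 2.02 CPM per kilobase. Derl3, a derlin of secretory cells, was lower still and failed the filter, with 3 to 20 counts in the controls and 3 to 15 in the GWI mice.

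In ER-associated degradation, the genes called higher were Edem1, Sel1l and Syvn1. Edem1, which encodes a mannosidase-like protein that selects misfolded glycoproteins, ranged from 82.5 to 130.0 CPM (median 104) in control colons and from 129 to 152 CPM (median 140.2) in GWI colons. Its level was above every control in 7 of 8 GWI mice, and 8 of 9 controls lay below every GWI mouse. Its log2 fold change was 0.41 (adjusted p = 0.00982, standard error 0.10). Sel1l, the adaptor of the HRD1 ligase, had 58.5 to 120.3 CPM (median 93.9) in control and 104 to 124 CPM (median 118) in GWI colons. Only Control replicate 1 reached into the GWI range, and the log2 fold change was 0.37 (adjusted p = 0.0165, standard error 0.10). Syvn1, the gene of HRD1 itself, had 18.5 to 46.9 CPM (median 39.0) against 43.0 to 51.5 CPM (median 49.6), with a log2 fold change of 0.39 (adjusted p = 0.0369, standard error 0.13) and 5 of 8 GWI mice above every control. Control replicate 9 was lowest for both Sel1l and Syvn1.

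The other 3 tested degradation genes were not called in the main fit. Their log2 fold changes were 0.11 for Derl1, -0.16 for Derl2 and -0.19 for Herpud1, the last an HRD1 partner that ATF4 and ATF6 are both known to induce. Without Control replicate 9 the value of Derl2 was -0.06. The median over the 6 tested degradation genes was 0.24. With the muscle covariate Edem1 lost its call (adjusted p = 0.664, log2 fold change 0.09), whereas Sel1l and Syvn1 kept theirs (0.0449 and 0.0399), and with the name part as a random block none of the 3 was called (adjusted p = 0.0810 for Edem1, 0.0929 for Sel1l and 0.108 for Syvn1), at log2 fold changes of 0.39, 0.40 and 0.47. Leaving out single mice kept the call of Syvn1 in 7 of 17 fits.

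Of the 7 ATF4 arm genes, 1 was called higher and 1 lower, shares close to the 13.4% and 13.5% of all tested genes. Sesn2, which encodes a leucine-binding restraint on mTORC1 that ATF4, p53 and NRF2 are all known to induce, had a lowest, median and highest level of 11.6, 12.8 and 17.01 CPM in control colons and of 16.7, 26.9 and 36.2 CPM in GWI colons. Only GWI replicate 5 and Control replicate 6 met, and 7 of 8 GWI mice lay above every control. The log2 fold change was 0.97 (adjusted p = 0.000249, standard error 0.13), the highest of the 32 tested genes. Trib3, the pseudokinase gene induced by ATF4 and CHOP, moved the other way. Its counts were few, 20 to 139 in the controls and 13 to 42 in the GWI mice, and its levels ran from 1.04 through a median of 2.09 to 7.74 CPM in control colons and from 0.746 through 0.989 to 2.497 CPM in GWI colons. The groups overlapped, with Control replicates 3, 4 and 5, which share a name part, above every GWI mouse and 4 of 8 GWI mice below every control. Its log2 fold change was -1.37 (adjusted p = 0.0128, standard error 0.37), but it was not called with the muscle covariate (adjusted p = 0.740, log2 fold change -0.27), with the name part as a random block (0.141, log2 fold change -1.04) or with the replicate number as a block in 16 mice (0.0730, log2 fold change -1.27).

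The transcription factors of the arm were not called in the main fit. Atf4 was called lower with upper-quartile factors and with limma-voom and quality weights, and Ddit3 with limma-voom alone, and over the 12 other fits their adjusted p ran from 0.00185 to 0.607 and from 0.0317 to 0.872. Atf4 itself had a lowest, median and highest level of 191, 222 and 289.8 CPM in control colons and of 181, 203 and 227 CPM in GWI colons. The groups overlapped, and Control replicates 4 and 5 were the high values. The log2 fold change was -0.18 (adjusted p = 0.148, standard error 0.09). Ddit3, the gene of CHOP, had 13.5, 22.9 and 30.6 CPM in control and 12.2, 17.5 and 28.2 CPM in GWI colons. Its ranges were almost the same, and the log2 fold change was -0.15 (adjusted p = 0.528, standard error 0.18), but 0.05 once the GC and length trend was removed and 0.10 with the muscle covariate. Ddit3 has 2 annotated entries whose exons overlap, so its count is uncertain. Of the other targets, Asns, the asparagine synthetase gene, had a log2 fold change of 0.07, Chac1, which encodes a glutathione-degrading enzyme, had -0.80 (adjusted p = 0.116, 15 to 61 counts per GWI mouse), and Ppp1r15a, whose product GADD34 directs a phosphatase to eIF2α, had 0.35 (adjusted p = 0.149). None of these 3 passed the test. The median of the 7 genes was -0.15, but it was 0.05 with the GC and length trend removed and 0.10 with the muscle covariate.

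To set the ER chaperone arm against the ATF4 arm in single mice, the log2 CPM values of each arm were averaged and the control mean was subtracted. The chaperone score had a lowest, median and highest value of -0.29, 0.05 and 0.33 in control colons and of -0.06, 0.25 and 0.55 in GWI colons. The ATF4 arm score ran from -0.42 through -0.14 to 0.62 in control colons and from -0.30 through -0.21 to 0.37 in GWI colons. The difference of the 2 scores had a median of 0.44 in GWI colons, with a range of -0.23 to 0.85, and a median of -0.08 in control colons, with a range of -0.55 to 0.68. The groups overlapped on all 3 measures. GWI replicates 1, 2, 3, 4 and 6 had a positive chaperone score and a negative ATF4 arm score, and Control replicates 7 and 8 also lay on the positive side of the chaperone score and the negative side of the other, while GWI replicates 7 and 8 were on the positive side of both and GWI replicate 5 on the negative side of both. The sensor score ran from -0.18 to 0.34 in control and from 0.18 to 0.74 in GWI colons, with 2 controls inside the GWI range. The degradation score ran from -0.21 to 0.21 in control and from 0.09 to 0.24 in GWI colons, with 1 control inside the GWI range.

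**Figure D3:**
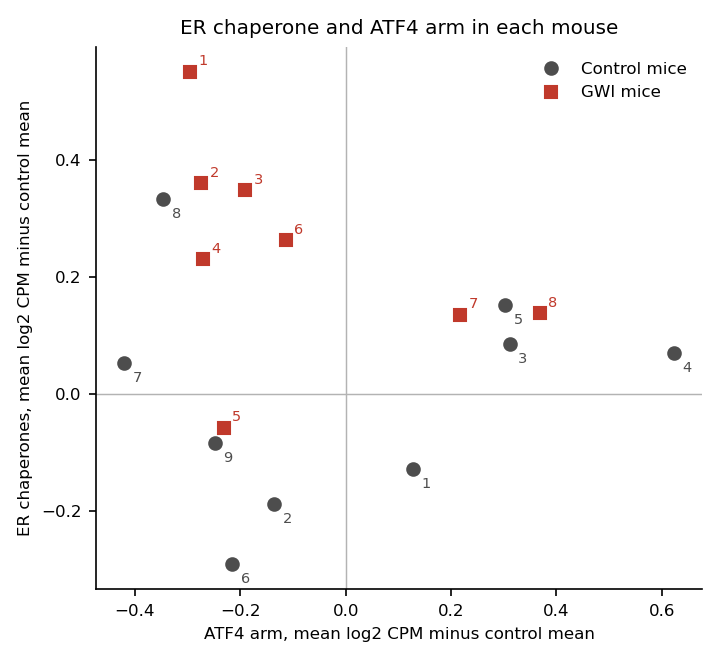
Each point is 1 of the 17 mice, numbered by replicate, with its ATF4 arm score on the x axis and its ER chaperone score on the y axis, both as mean log2 CPM minus the control mean. The GWI mice reach 0.55 on the y axis and the control mice 0.33, and on the x axis both groups spread across 0.

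Within the groups the members did not move as 1 block. After the group means were removed, the median Pearson correlation over the 17 mice was 0.438 among the 91 pairs of chaperone genes, 0.573 among the 10 pairs of sensor genes, 0.298 among the 21 pairs of the ATF4 arm and -0.0270 between the 98 pairs of a chaperone and an ATF4 arm gene. Without Control replicate 9 the first of these was 0.602 and the last -0.0701. The closest pairs were Pdia3 with Pdia6 (Pearson r = 0.942, Spearman rho = 0.941, n = 17) and Pdia3 with Dnajc3 (r = 0.934, rho = 0.890), both of folding enzymes or cochaperones whose group difference did not pass the test. At the other end, Ppp1r15a ran against Pdia3 (r = -0.933, rho = -0.934) and Pdia6 (r = -0.917, rho = -0.926). Xbp1 followed Pdia6 (r = 0.881, rho = 0.885), and Calr followed Hyou1 (r = 0.880, rho = 0.765) and also Asns of the ATF4 arm (r = 0.875, rho = 0.873). Among the 15 pairs of degradation genes the median was -0.122, and 0.104 without Control replicate 9. The genes of a pair come from the same 17 libraries, which differ in the levels of tissue marker genes and in composition. These values carry no test.

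Known binding motifs were looked for in the 250 bases before the RefSeq start site (GRCm38.p6), on both strands, because members that move together may share them. RefSeq promoter windows were at hand for 28 of the 33 genes, all but Atf6, Ern2, Hyou1, Manf and Derl1. For 25 of their 29 windows, bases just after the start site were found in a GENCODE M21 transcript of the gene. They were not found for the windows of Dnajc3, Pdia4, Trib3 and Xbp1, whose start sites are thus less certain. The ER stress response element (ERSE, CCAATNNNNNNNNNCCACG), where NF-Y and ATF6 are known to bind, was present in 9 of the 28 genes, or 32.1%, and in 0.113% of all 32851 promoter windows of the same length. The genes were Hspa5, Hsp90b1, Calr, Canx, Dnajc3, Pdia6, Creld2, Syvn1 and Derl3, so 7 of the 12 chaperone genes with a window held it and 0 of the 7 ATF4 arm genes. Its relative ERSE-II (ATTGGNCCACG), which shares the CCACG end, was found in Herpud1 alone among the members and in 0.0304% of all windows. The C/EBP-ATF response element of ATF4 (CARE, TGATGNAA) was found in Asns, Chac1 and Herpud1, against 3.45% of all windows, and the UPRE (TGACGTGG) in none of the 28 genes, against 0.563%. The shares of members count genes, whereas the shares beside them count windows. Because the members were chosen by name as genes of this response, the gap between these shares is no result of the colon counts. Of the 9 genes with an ERSE, Calr, Creld2 and Syvn1 were called higher, 5 were not called and Derl3 was not tested. Ern1, Eif2ak3, Sesn2 and Trib3 held none of these letters in the window, which says nothing of any factor acting on them.

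The windows of Hspa5 (chr2:34771840-34772089, plus strand), Calr (chr8:84846932-84847181, minus strand), Creld2 (chr15:88819396-88819645, plus strand) and Syvn1 (chr19:6046326-6046575, plus strand) are shown as the BiP promoter and the promoters of the called genes with an ERSE. They are written 5′ to 3′ on the strand of the gene, ending at the base before the start site, with the ERSE in capitals. It lies 65 to 47 bases before the start site in Hspa5, 162 to 144 in Calr, 126 to 108 in Creld2 and 44 to 26 in Syvn1, and it reads on the opposite strand in Calr and Creld2.
Hspa5: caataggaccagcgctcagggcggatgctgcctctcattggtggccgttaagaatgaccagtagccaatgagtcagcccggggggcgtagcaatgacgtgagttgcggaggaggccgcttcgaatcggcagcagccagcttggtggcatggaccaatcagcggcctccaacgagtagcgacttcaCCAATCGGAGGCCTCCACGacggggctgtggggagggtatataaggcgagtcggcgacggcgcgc
Calr: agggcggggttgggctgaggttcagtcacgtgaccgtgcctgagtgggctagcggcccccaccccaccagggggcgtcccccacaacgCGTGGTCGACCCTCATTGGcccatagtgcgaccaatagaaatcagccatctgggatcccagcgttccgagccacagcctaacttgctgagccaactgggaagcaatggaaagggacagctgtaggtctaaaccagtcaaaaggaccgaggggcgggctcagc
Creld2: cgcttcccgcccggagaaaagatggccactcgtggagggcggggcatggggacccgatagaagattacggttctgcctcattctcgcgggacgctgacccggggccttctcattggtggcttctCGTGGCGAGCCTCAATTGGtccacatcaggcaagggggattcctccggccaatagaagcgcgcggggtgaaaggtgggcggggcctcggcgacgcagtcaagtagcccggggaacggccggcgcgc
Syvn1: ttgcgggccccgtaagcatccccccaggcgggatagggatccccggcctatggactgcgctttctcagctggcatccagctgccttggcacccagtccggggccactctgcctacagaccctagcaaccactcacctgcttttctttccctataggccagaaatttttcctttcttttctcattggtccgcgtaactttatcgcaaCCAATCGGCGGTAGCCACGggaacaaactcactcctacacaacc

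The windows of Asns (chr6:7693210-7693459, minus strand), Chac1 (chr2:119350992-119351241, plus strand) and Herpud1 (chr8:94386179-94386428, plus strand) are shown as the members that held the CARE letters. The capitals mark the CARE, on the strand of the gene in Asns and on the opposite strand in Chac1 and Herpud1, and in Herpud1 also the ERSE-II, 52 to 42 bases before the start site and apart from the CARE at 112 to 105. None of the 3 genes was called.
Asns: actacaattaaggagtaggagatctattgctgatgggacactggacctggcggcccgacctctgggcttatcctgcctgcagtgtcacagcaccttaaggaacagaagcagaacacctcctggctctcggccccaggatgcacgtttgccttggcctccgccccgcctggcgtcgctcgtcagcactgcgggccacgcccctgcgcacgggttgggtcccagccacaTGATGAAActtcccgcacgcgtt
Chac1: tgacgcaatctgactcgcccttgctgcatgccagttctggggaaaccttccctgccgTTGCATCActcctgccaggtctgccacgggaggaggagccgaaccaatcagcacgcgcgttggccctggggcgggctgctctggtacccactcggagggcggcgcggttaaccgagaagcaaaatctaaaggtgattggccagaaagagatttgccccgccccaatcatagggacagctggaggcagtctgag
Herpud1: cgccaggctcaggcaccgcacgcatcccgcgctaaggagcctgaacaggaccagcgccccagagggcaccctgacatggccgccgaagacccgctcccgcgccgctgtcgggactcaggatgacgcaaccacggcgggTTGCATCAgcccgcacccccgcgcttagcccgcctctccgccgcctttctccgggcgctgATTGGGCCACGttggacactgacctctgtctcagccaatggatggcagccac

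Further genes of the same pathways, taken from lists written by function, moved in both directions, and their counts stand beside 13.4% of all tested genes called higher and 13.5% called lower. Of 36 other genes of ER folding and secretory entry, 7 were called higher and 3 lower and the median log2 fold change was 0.12. The glucosyltransferase Uggt1, which marks unfolded glycoproteins for another round with calreticulin and calnexin, had 0.55 (adjusted p = 0.0055), the translocon pore gene Sec61a1 had 0.44 (adjusted p = 0.00566) and Stt3b, a catalytic subunit of N-glycosylation, had 0.33 (adjusted p = 0.0121). The small translocon subunits went the other way, with -0.63 for Sec61g and -0.24 for Sec61b, as did Fkbp2 with -0.31. Of 17 tested genes listed as other degradation genes, 3 rose, Sel1l3 by 0.69, Edem2 by 0.47 and the glycan-reading lectin Os9 by 0.55. Whether Sel1l3 itself acts in degradation is not shown by these counts. The selenoproteins Selenok and Selenos fell by 0.37 and 0.41. Of 13 other sensors and regulators, 2 were called, both higher, a share close to that of all tested genes. They were Mbtps1, the protease that cuts ATF6, at 0.35 (adjusted p = 0.0047), and Tmbim6, an inhibitor of ER stress death, at 0.47 (adjusted p = 0.0315).

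Beyond the 7 genes of the ATF4 arm, 35 other amino acid response genes and ATF4 targets had 2 genes called higher and 2 lower, smaller shares than the 13.4% and 13.5% of all tested genes, and a median log2 fold change of 0.06. The neutral amino acid transporter Slc38a2 (0.44, adjusted p = 0.0035) and the glycyl-tRNA synthetase Gars (0.33, adjusted p = 0.0173) rose. The stress protein gene Nupr1 (-1.24, adjusted p = 0.0136) and the transcription factor Atf5 (-0.57, adjusted p = 0.0339) fell. Among 13 genes of the eIF2 kinases, eIF2 and eIF2B, the heme-regulated kinase Eif2ak1 was called higher at 0.44 (adjusted p = 0.00214) and the exchange factor subunit Eif2b3 lower at -0.36 (adjusted p = 0.0433).

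Some marker genes of muscle and of absorptive epithelium differed between the groups as well. By histology, the paper found no significant difference in the thickness of the outer muscle layers. Of 10 smooth muscle genes, 7 were called lower and none higher, beside 13.5% of all tested genes called lower and 13.4% called higher. The smallest p values were those of Tagln at -1.17, Mylk at -0.91 and Synpo2 at -1.06, and the median of all 10 was -0.91. Their summed level had a lowest, median and highest value of 3690.0, 11584 and 23923 CPM in control colons and of 3658, 5142 and 11832 CPM in GWI colons, and Myh11 was the most abundant. Of 11 genes of absorptive colon epithelium, 4 were called higher and none lower, including Cdh1 at 0.62, Vil1 at 0.64 and Cdhr5 at 0.91, with a summed level of 14678 to 35634 CPM in control and 17093 to 34440.3 CPM in GWI colons (medians 21941 and 23533), and Car1 was the most abundant. No gene of either list was at 0 in all mice. The mean log2 CPM of the muscle genes minus that of the epithelium genes, here without subtraction of the control mean, was -0.94 to 1.37 in control colons and -1.94 to -0.39 in GWI colons. With the muscle against epithelium score as a covariate, 6 of the 32 genes were called higher (Hyou1, Syvn1, Sel1l, Ern1, Eif2ak3 and Sesn2) and 2 lower (Dnajb9 and Derl2, both not called in the main fit), while Trib3 lost its call. Since this score itself moves with the groups, its part in the other calls cannot be told apart from that of the exposure.

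The secretory cells were read from goblet and plasma cell genes. In both lists the share called higher was close to the 13.4% of all tested genes. Of 10 goblet cell genes, Muc2 was called higher at 0.51 (adjusted p = 0.0465), none was called lower, and the summed level was 12219 to 22149 CPM in control and 14124 to 22395 CPM in GWI colons (medians 14690.1 and 18540.3), with Muc2 the most abundant. The goblet genes went both ways, with 6 positive and 4 negative log2 fold changes and a median of 0.02. Their score per mouse was above the control median in 8 of 8 GWI mice. It ran from -0.37 to 0.80 in control and from -0.03 to 0.57 in GWI colons, so every GWI mouse lay inside the control range. Of 8 tested plasma cell genes, Sdc1, which epithelium also expresses, was called higher at 0.46 and was the most abundant, and the other 7 were not called. The summed plasma cell level was 325 to 966 CPM in control and 503 to 970 CPM in GWI colons, while Tnfrsf17 and Fcrla failed the filter.

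Counts for further lists stand beside 13.4% called higher and 13.5% called lower over all tested genes. Of 8 fibroblast genes, Dcn and Dpt were called lower at -0.75 and -0.76. Of 6 adipocyte genes, Cidec was called higher at 0.99. The small intestine genes Fabp6 and Lyz1 were called lower at -4.40 and -4.42, out of 4 tested, but a few controls carried these values, with a control median of 5.98 and a highest control of 314 CPM for Fabp6 and of 5.92 and 330.2 CPM for Lyz1, against GWI medians of 2.03 and 2.68 CPM. Also lower was Clps, the single tested gene of pancreatic acinar cells, at -0.81, with Cpa1 at 0 counts in every mouse. Of 15 clock genes, 3 were called higher, Arntl at 1.72, Npas2 at 1.58 and Nfil3 at 1.35, and 8 lower. Among the lower genes the smallest p values were those of Hlf at -1.61, Ciart at -1.14 and Dbp at -1.12. Of 10 handling and immediate early genes, Junb (0.89) and Ier2 (0.36) were called higher and Hspa1a (-1.78) lower. After the group means were removed, scores per mouse were correlated over the 17 mice, in the order chaperone, sensor, degradation and ATF4 arm. Pearson r was -0.771, -0.705, 0.303 and 0.456 with the clock gene score. It was -0.430, -0.626, 0.502 and 0.621 with the handling gene score, and -0.410, -0.693, 0.255 and 0.726 with the neuron and glia score. Some other lists gave values of like size. In the same order r was -0.573, -0.630, 0.301 and 0.386 with the smooth muscle score. For absorptive epithelium it was -0.536, -0.515, 0.482 and 0.114, and for adipocytes -0.071, -0.243, 0.011 and 0.644. Goblet cells gave smaller values, -0.214, -0.016, 0.304 and -0.310. These values carry no test. The hour of tissue collection is not given in the sources used here. The part of clock phase, handling or neighbouring tissue in the differences of the stress response genes was not tested.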

How the data were processed

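The authors trimmed paired-end reads of poly(A)-selected libraries with Trimmomatic (0.36 in the submitters' processing notes), aligned them to GRCm38 with STAR (2.5.2b, same notes) and took unique hits per gene by featureCounts as the count. They deposited 1 table of raw counts per gene, without normalization, in which all 17 columns matched a mouse by name. The annotation release and the strand setting are not given in the sources used here.

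Counts were filtered with filterByExpr, scaled by TMM and tested with the robust quasi-likelihood test of edgeR 4.0.16 in R 4.3.3, with the group as the only term and Benjamini-Hochberg adjustment of p across the tested genes. The study compared the groups with DESeq2's Wald test, which was kept as an alternative. Standard errors are the fold change divided by the root of F. Scores per mouse are means of log2 CPM with a prior count of 2. Counting error limits mainly Trib3, Chac1 and Derl3. The lowest chi-square per degree of freedom between 2 mice of a group was 9.41, so no library was counted as a repeat of another. Positions, exonic lengths and exon overlaps come from GENCODE M21 and promoters from RefSeq, both of GRCm38. Python 3.11.15 read the promoters and drew the figures.

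The members and the gene lists were chosen with earlier results of these data known. The text accounts for all 33 members, and it gives the lowest, median and highest mouse for Hspa5, Atf4, Xbp1, Ddit3 and every member called. In each other list it names up to 3 genes with the smallest p in each direction among those called. One marker list is not reported here. Hm13, March6 and Amy2a5 were listed but had no entry under these symbols.

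The alternatives were DESeq2's size factors, upper-quartile factors, library size alone, the Wald test of DESeq2 1.42.0, limma-voom with sample quality weights (limma 3.58.1), no low-count filter, a minimum of 10 counts per mouse, estimation that is not robust, a block for the replicate number, the muscle against epithelium covariate, the first part of the sample name as a random block, each mouse left out in turn, and a threshold of unadjusted p under 0.05 with an absolute log2 fold change over 1. Removal of the GC and length trend by offsets (mgcv 1.9.3) was added after seeing the data.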

Additional observations from a re-analysis of the deposited data

Results flagged for a closer look

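Of 74 groups of values examined, 8 had a highest or lowest mouse far from the others of its group, and chance flags about 1 in 20 groups. Control replicate 9 was low for Calr, at 166 CPM where the other controls had 328 to 481, and high for Derl2, at 98.8 CPM where the others had 47.4 to 72.6. GWI replicate 1 was high for Manf (147 CPM, others 107 to 124), Ern2 (105.6 CPM, others 48.6 to 70.8) and Asns (53.0 CPM, others 27.8 to 39.1). Control replicate 8 was high for Sdf2l1 (38.5 CPM, others 17.1 to 27.0), Control replicate 1 for Derl3 (1.26 CPM, others 0.133 to 0.686) and GWI replicate 8 for Trib3 (2.497 CPM, others 0.746 to 1.47). Without Control replicate 9 the counts were 13 higher and 2 lower, Herpud1 being the added gene, and without GWI replicate 1 they were 8 higher and 1 lower.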

How the results depend on the processing

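Of the 14 genes called, Ern1, Eif2ak3 and Sesn2 stayed called in all 12 other fits with an adjusted p threshold, and 9 stayed called whichever mouse was left out. Called genes numbered 6 higher and 3 lower with upper-quartile factors, 8 and 2 with library size alone, 6 and 2 with the muscle covariate and 3 and 0 with the name part as a random block (limma-voom; 14 and 1 at an unadjusted p under 0.05). They numbered 17 and 6 with limma-voom and quality weights. At an unadjusted p under 0.05 with an absolute log2 fold change over 1 they numbered 0 and 1 (edgeR; 14 and 3 at that p alone). The medians with 1 mouse left out were 0.22 to 0.29 for chaperones, 0.22 to 0.28 for degradation, 0.26 to 0.45 for sensors and -0.21 to -0.08 for the ATF4 arm. Leaving out 1 mouse gave 8 to 13 higher and 1 to 2 lower, with 8 higher without Control replicate 6 or without GWI replicate 1, 2, 3 or 4, and 2 lower without Control replicate 9. The median of the degradation genes was 0.24 over 6 genes. It was 0.11 with DESeq2's Wald test and 0.11 without a filter, where Derl3 enters as gene 7 and Derl1 becomes the middle gene. With the muscle covariate it was 0.0732 and the median of the sensor genes 0.15, shifts whose cause was not tested. No called gene changed sign. Hsp90b1, Pdia3, Pdia6, Dnajc3, Manf, Ddit3 and Asns, none of them called, did so in at least 1 other fit. For the single genes, 327 of the values in other fits kept the call status of the fit reported, 19 gained a call and 38 lost one; with 1 mouse left out these were 492, 4 and 48. The median of all tested genes, -0.06 in the fit reported, was -0.15 with upper-quartile factors, -0.10 by DESeq2's Wald test and -0.10 without a filter.

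With the replicate number as a block (8 pairs, without Control replicate 9), 10 genes were higher and 1 lower, and 1404 and 814 over the whole table. The lower gene was Herpud1, and Trib3 was not called (adjusted p = 0.0730; 0.000192 to 0.740 over its other fits). The numbers do not pair the mice: deviations from the group means correlated at -0.51 to 0.11 between same-numbered mice, over 0.1 in 1 of 8 pairs, and 0 of 8 correlated best with their own number. Depth limits mainly Trib3, Chac1 and Derl3.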
